A study of Mus musculus with 12 samples.

Results

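The genes that encode the subunits, activators and assembly factors of the proteasome were taken by symbol alone, as protein-coding mouse genes named Psma to Psmg with a number, without the inducible Psmb8 and Psmb9. The rule found 48 genes among the 55487 of the count table, and 47 of them had at least 10 counts in at least 3 of the 12 libraries. All 47 were among the 15425 genes that were tested. The remaining gene, Psmb11, which encodes the catalytic subunit of the thymic proteasome, had 2 counts in 1 library. The 47 genes comprise 7 alpha ring and 7 beta ring subunits, the inducible Psmb10, 6 ATPases, 11 non-ATPase subunits, 4 activators, 7 assembly factors and the inhibitor Psmf1. They also hold the testis form Psma8, the Psme2 copy Psme2b and Psmc3ip, a meiotic recombination protein that is named for binding Psmc3 and is no proteasome subunit.

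The proteasome is the barrel-shaped protease that degrades ubiquitin-tagged and damaged proteins in every cell. Outer rings of alpha subunits gate the 20S core and inner rings of beta subunits form its chamber, in which Psmb6, Psmb7 and Psmb5 carry the caspase-like, trypsin-like and chymotrypsin-like active sites. The 19S cap of ATPases and non-ATPase subunits binds, unfolds and feeds in ubiquitinated substrates, whereas the PA28 activators Psme1 and Psme2 open the core without ATP. In immune cells, interferon-induced Psmb9, Psmb10 and Psmb8 take the places of Psmb6, Psmb7 and Psmb5 to form the immunoproteasome, which favours peptides for MHC class I.

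CD11b-positive cells were purified on magnetic beads after papain digestion of the cortex of 12 male mice, and their bulk mRNA was sequenced. WT and App NL-G-F mice, here called App mice, each received veh or rh Bri2 BRICHOS R221E, here called BRICHOS, which gave 4 groups of 3 mice on the C57BL/6J background. App NL-G-F is a knock-in of the humanized App gene with the Swedish, Iberian and Arctic mutations, expressed from the endogenous App promoter. BRICHOS is a recombinant variant of the human Bri2 chaperone domain, and veh is PBS. All mice received 24 intravenous injections over 12 weeks from 9 months of age, of PBS or of 10 mg/kg of the protein, and were sacrificed after a further 4 weeks without treatment. Gene counts added up to between 12433402 and 17889654 per library. Levels are given as CPM, counts scaled to a common library size, with TMM factors, which scale libraries so that most genes do not change on average, and a gene is called at an adjusted p-value (edgeR, Benjamini-Hochberg over all 15425 genes) under 0.05.

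The sequences 250 bases upstream of the RefSeq start are shown for the catalytic subunit genes Psmb6 and Psmb5 and for the assembly factor gene Psmd9, which were called higher in App mice and hold the letters TGACNNNGC, the core of the antioxidant response element that Nrf2 binds. These calls were made with TMM factors. Those of Psmb5 and Psmd9 were lost in veh-treated and in BRICHOS-treated mice with library totals as the only scaling. Capitals mark the letters TGACNNNGC, and in Psmd9 also the core of the interferon-stimulated response element. The coordinates are those of GRCm38.p6, at chr11:70525107-70525356 on the plus strand for Psmb6, chr14:54617996-54618245 on the minus strand for Psmb5 and chr5:123227940-123228189 on the plus strand for Psmd9.
Psmb6: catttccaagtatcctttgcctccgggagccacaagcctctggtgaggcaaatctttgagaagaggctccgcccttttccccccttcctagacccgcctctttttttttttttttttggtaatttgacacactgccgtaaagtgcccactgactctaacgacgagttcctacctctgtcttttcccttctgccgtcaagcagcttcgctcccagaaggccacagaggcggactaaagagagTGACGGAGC
Psmb5: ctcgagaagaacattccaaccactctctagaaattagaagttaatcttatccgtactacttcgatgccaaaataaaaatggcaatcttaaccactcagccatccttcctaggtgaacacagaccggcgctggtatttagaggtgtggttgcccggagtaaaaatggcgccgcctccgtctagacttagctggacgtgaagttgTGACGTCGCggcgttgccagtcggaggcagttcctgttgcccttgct
Psmd9: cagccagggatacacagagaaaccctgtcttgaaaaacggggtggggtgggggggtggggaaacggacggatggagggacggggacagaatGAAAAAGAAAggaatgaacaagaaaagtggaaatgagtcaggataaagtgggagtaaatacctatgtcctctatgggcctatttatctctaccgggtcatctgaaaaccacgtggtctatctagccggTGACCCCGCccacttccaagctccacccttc

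In Psmb6 the motif ended at the RefSeq start, 9 bases upstream of which it began, and in Psmb5 and Psmd9 it began 47 and 31 bases upstream. The GENCODE starts of these genes differ, at chr11:70525367 for Psmb6, chr14:54618022 for Psmb5 and chr5:123169413 for Psmd9. RefSeq promoters were found for 40 of the 48 genes. Over the whole window of 300 bases, which adds 50 bases after the start, and both strands, TGACNNNGC was held by 6 of the 40 genes (15%) and by 14.0% of 27025 genes of the same table. The other 3 holders were Psmc6 and Psmd12, with the letters upstream, and Psme4, of which Psmd12 was called higher in treated mice and Psmc6 and Psme4 in neither comparison. The core of the interferon-stimulated response element, a pair of GAAA separated by any pair of bases, was held by 5 genes, Psmb3, Psmd4, Psmd9, Psme1 and Psmg4 (12.5% against 4.0% of all genes), and by 3 genes in the upstream 250 bases (7.5% against 3.5%). TTCNNNGAA, the interferon gamma activated site, was held by 2 genes (5.0% against 9.6%), and CCAAT by 14 (35.0% against 41.1%). The motifs do not overlap one another in the printed sequences, and the counts are a description of these windows only.

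Proteasome genes were well expressed in these cells. The median over the 47 genes was 55.9 CPM, against 17.1 CPM over all genes tested, and 76.1% of the tested genes lay below it. Psmd2, the scaffold Rpn1 of the 19S base, had the highest mean with 132.7 CPM. Psmc3ip, Psma8, Psmg3, Psmg4, Psmg1 and Psme2b were the lowest, with means of 1.59, 4.51, 5.93, 7.43, 8.98 and 9.29 CPM. Per kilobase of exon, PA28 alpha (Psme1) ranked first in all 4 groups, with 48.7 ± 1.8 CPM per kb in veh-treated WT and 67.0 ± 2.6 in veh-treated App mice (SD, n = 3).

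In veh-treated mice, App microglia had higher levels of 16 of the 47 proteasome genes than WT microglia and lower levels of 0 with TMM factors, but with library totals as the only scaling 6 genes were called higher and 12 lower. Among all genes tested, 20.1% were called higher and 16.9% lower with TMM factors, and 13% and 33.7% with library totals. In the mice treated with BRICHOS, which are other libraries, 26 genes were called higher and 0 lower with TMM factors (20.8% and 21.8% of all genes). With library totals, 4 were called higher and 9 lower in these mice (10.3% and 45.4% of all genes). With TMM factors and an unadjusted p-value under 0.05, 19 were higher and 1 lower in veh-treated mice (24.3% and 22.3% of all genes) and 29 higher and 0 lower in treated mice (24.1% and 26%). DESeq2 called 14 and 28 higher and 0 lower. The median log2 fold change of the 47 genes was 0.14 in veh-treated and 0.19 in treated mice with TMM factors, beside −0.02 and −0.04 over all genes. With library totals these medians became −0.05 and −0.08, beside −0.21 and −0.31 over all genes. The genes stood above the median of all genes by 0.16 and 0.23. The scaling moves all genes of a library by 1 factor, so this distance could hardly change with it.

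With TMM factors, the fold change was above 0 for 38 of the 47 genes in veh-treated and 41 in treated mice, against 47.9% and 46.1% of all genes. With library totals, it was above 0 for 18 and 17, beside medians of −0.21 and −0.31 over all genes. In CPM with TMM factors, the 3 App libraries lay above all 3 WT libraries for 22 genes in veh-treated mice (25.5% of all genes) and 29 in treated mice (25.3%). They lay below them for 2 (25.3%) and 1 (26.4%). Of the genes called with TMM factors, 15 were called in both comparisons, which is 93.8% of the calls in veh-treated and 57.7% of those in treated mice. Over all genes, 15.1% were called higher in both. Psmd13 was called only in veh-treated mice and 11 genes only in treated mice, and the test of the difference itself, which equals the interaction below, called none of them. Across the 47 genes, Pearson's r of the fold changes in both comparisons was 0.84, and 0.66 without Psmb6 and Psmg4. The points share their libraries, and genes are not independent replicates.

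**Figure D1:**
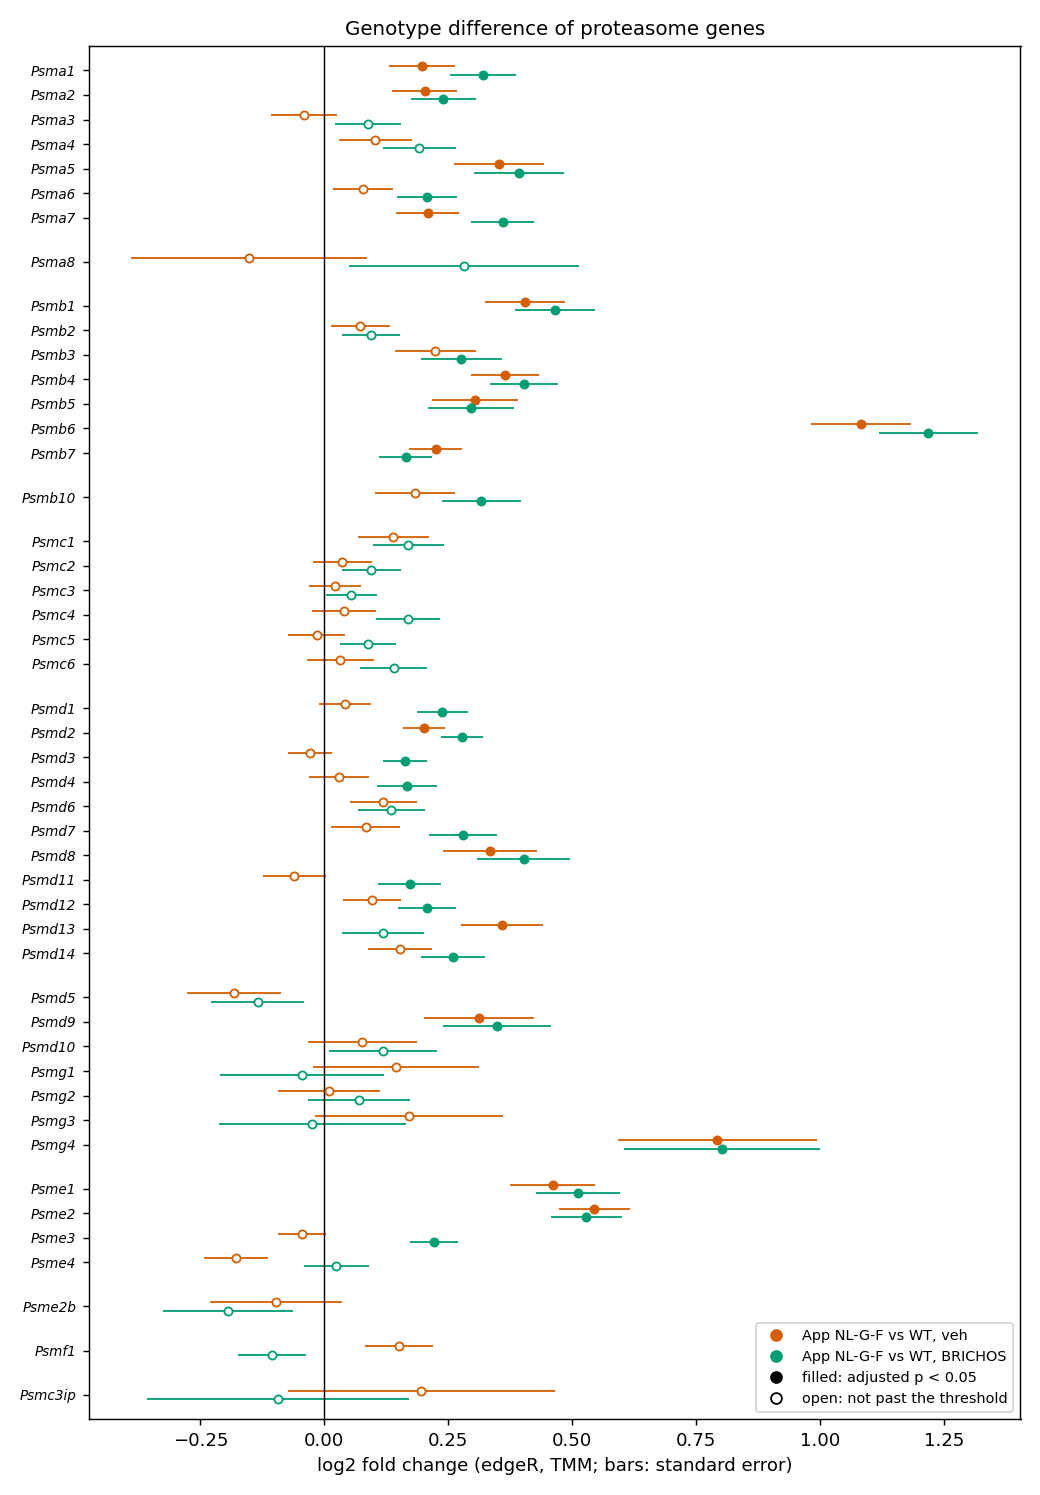
Log2 fold change of each of the 47 genes (y axis, grouped by role) between App and WT mice, with TMM factors. Points are estimates in veh-treated (orange) and BRICHOS-treated mice (green), bars are standard errors, and filled points have an adjusted p-value under 0.05. Psmb6 stands farthest to the right, with 1.08 and 1.22, and the 6 ATPases Psmc1 to Psmc6 are open in both.

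The calls were spread unevenly over the parts of the complex. In veh-treated mice, 5 of 7 beta ring, 4 of 7 alpha ring, 3 of 11 non-ATPase, 2 of 7 assembly factor and 2 of 4 activator genes were called higher, and in treated mice 6, 5, 9, 2 and 3. None of the 6 ATPase genes was called in either comparison by edgeR, with 0 and 2 of them higher at an unadjusted p-value under 0.05. DESeq2 called 0 and 1, the latter being Psmc4. The median log2 fold changes were 0.30 and 0.30 for the beta ring, 0.20 and 0.24 for the alpha ring, 0.10 and 0.21 for the non-ATPase subunits and 0.03 and 0.12 for the ATPases. With library totals, the ATPase genes Psmc2, Psmc3 and Psmc5 were among 6 genes called lower in App mice in both comparisons, with Psma3, Psmd5 and Psme4. Under that scaling, 33.7% of all genes were called lower in veh-treated and 45.4% in treated mice.

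**Figure D2:**
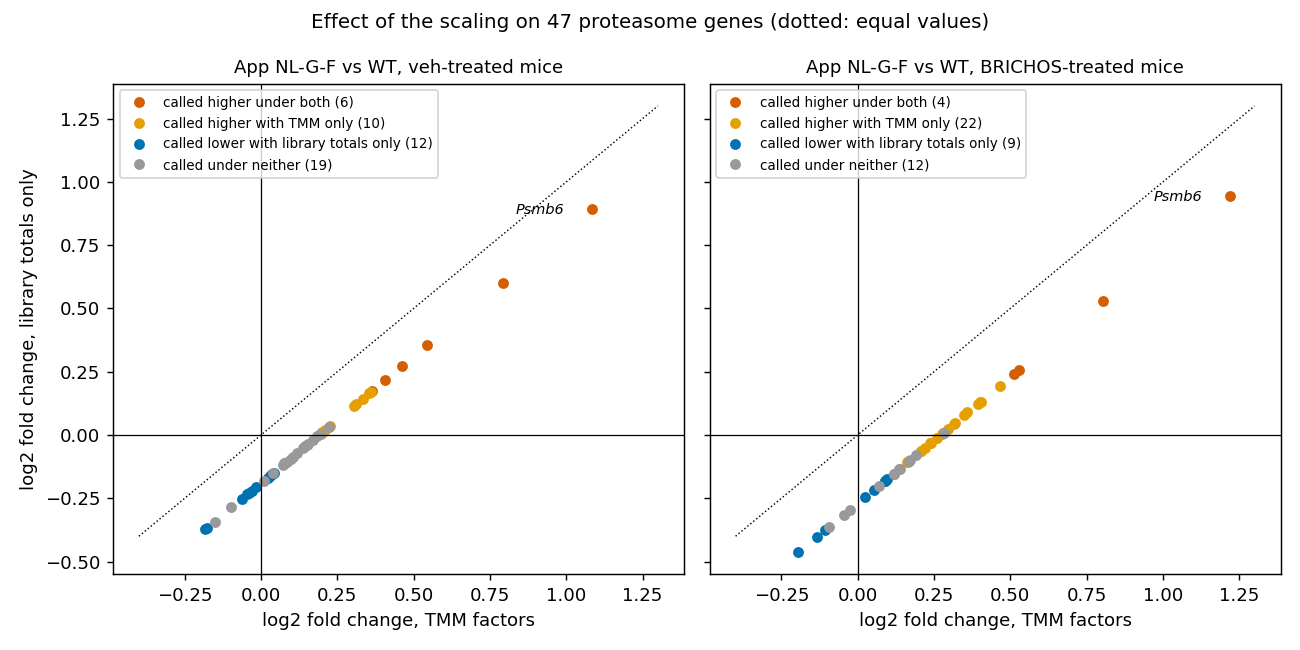
Log2 fold changes of the 47 genes between App and WT mice with TMM factors (x axis) and with library totals only (y axis), in veh-treated (left) and BRICHOS-treated mice (right). The points run below the dotted line of equal values by about the shift of the median of all genes, −0.19 on the left and −0.27 on the right, and Psmb6 lies highest in both panels.

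Psmb6 differed most. This gene (chr11:70525367-70527858 on the plus strand, GRCm38) encodes the beta1 subunit with the caspase-like site. Its levels were 53.1, 61.4 and 60.1 CPM in veh-treated WT, 52.5, 58.5 and 59.8 CPM in treated WT, 128.8, 133.0 and 107.9 CPM in veh-treated App, and 124.3, 149.3 and 124.1 CPM in treated App mice. Every App library was above every WT library. The level was 2.12-fold higher in veh-treated mice (log2 fold change 1.08 ± 0.10 SE, adjusted p = 7.29e-06) and 2.33-fold higher in treated mice (1.22 ± 0.10, adjusted p = 2.57e-06). It was the only one of the 47 genes with a log2 fold change above 1 in either comparison, and 1.05% of its 50-base stretches are shared with a pseudogene.

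Because the scaling moves whole libraries, Psmb6 was also set against the other beta ring genes within each library. Its counts per kilobase were 1.48 to 1.65 times the median of the 6 other beta ring genes in veh-treated WT, 1.43 to 1.59 times in treated WT, 2.54 to 2.71 times in veh-treated App and 2.56 to 2.87 times in treated App mice. Psmb6 ranked 3 of 7 in each WT library and 1 of 7 in each App library. Psmb6 was chosen for this ratio after its values were seen, so the ratio is a description with no test.

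The noncatalytic beta subunits Psmb1 (beta6) and Psmb4 (beta7) came next within the ring. Psmb1 was at 70.9, 74.9 and 73.4 CPM in veh-treated WT, 74.8, 76.3 and 77.3 in treated WT, 101.8, 102.6 and 85.7 in veh-treated App, and 109.8, 112.2 and 93.4 in treated App mice. The genotypes did not overlap. The log2 fold changes were 0.41 ± 0.08 and 0.47 ± 0.08 (adjusted p = 0.00225 and 0.000745, edgeR). Psmb4 was at 70.0, 74.0 and 73.1 CPM in veh-treated WT, 74.1, 76.3 and 76.5 in treated WT, 91.6, 100.2 and 87.9 in veh-treated App, and 96.9, 110.2 and 92.8 in treated App mice. Its log2 fold changes were 0.36 ± 0.07 and 0.40 ± 0.07 (adjusted p = 0.0016 and 0.00067). In both genes the third App library of each treatment was the lowest of its group. With library totals, both stayed called in veh-treated mice and lost the call in treated mice (adjusted p = 0.0547 for Psmb1 and 0.0758 for Psmb4).

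**Figure D3:**
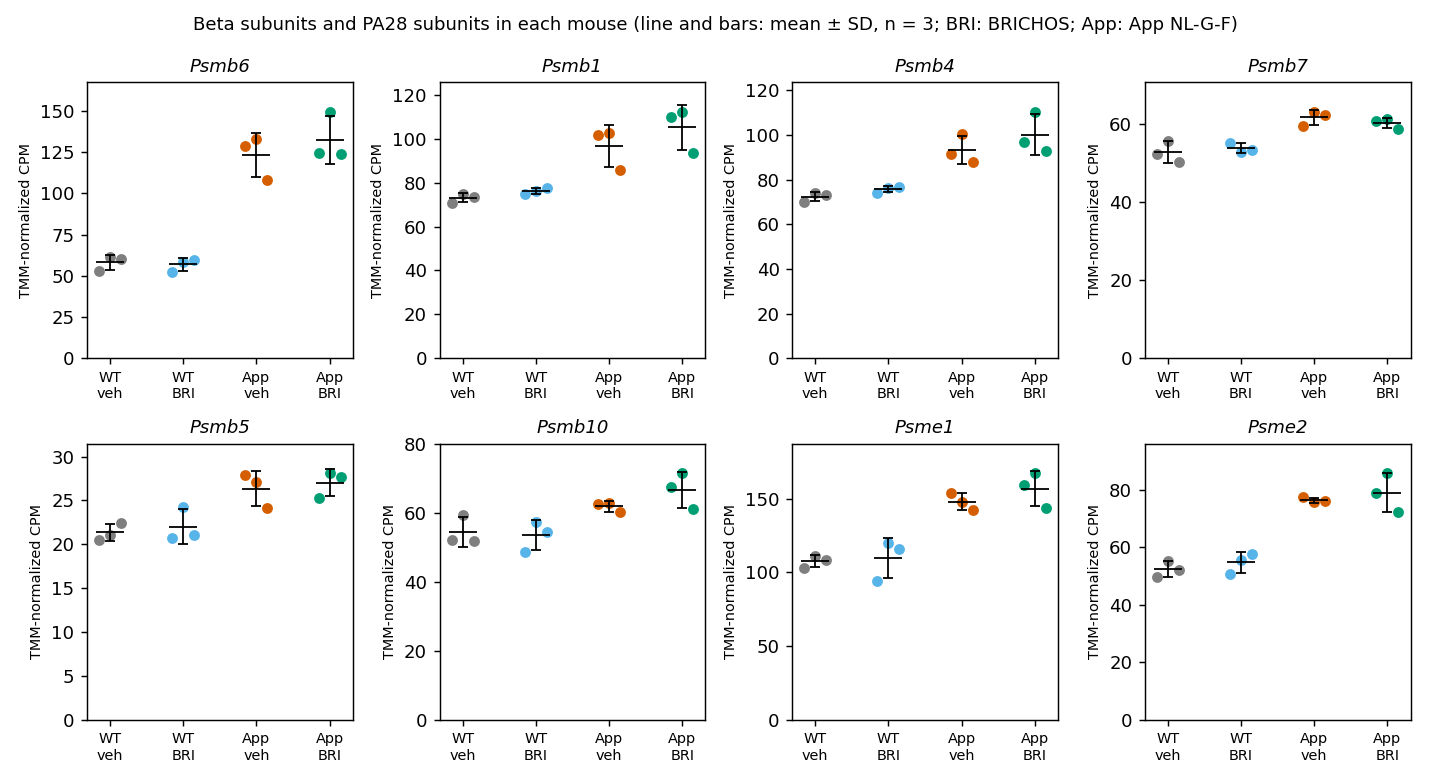
TMM-normalized CPM (y axis, from 0) of 8 genes in each of the 12 mice, by group (x axis). Points are mice, and lines with bars are mean ± SD (n = 3). For Psmb6, the 6 App mice sit between 107.9 and 149.3 CPM and the 6 WT mice between 52.5 and 61.4 CPM, whereas Psmb7 and Psmb5 differ by less.

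The other catalytic subunits of the constitutive core differed less. Psmb7 (beta2, trypsin-like) was at 52.4, 55.9 and 50.3 CPM in veh-treated WT, 55.3, 52.8 and 53.5 in treated WT, 59.7, 63.2 and 62.5 in veh-treated App and 60.9, 61.4 and 58.8 in treated App mice. Its log2 fold changes were 0.22 ± 0.05 and 0.16 ± 0.05 (adjusted p = 0.00627 and 0.027). With library totals these became 0.03 and −0.11 and neither was called. Psmb5 (beta5, chymotrypsin-like) was at 20.5, 21.1 and 22.4 CPM in veh-treated WT, 20.7, 24.3 and 21.0 in treated WT, 27.9, 27.04 and 24.1 in veh-treated App and 25.2, 28.1 and 27.6 in treated App mice. Its log2 fold changes were 0.30 ± 0.09 in both (adjusted p = 0.0174 and 0.0169), and the call was lost with library totals (adjusted p = 0.306 and 0.829). It was also lost in veh-treated mice without replicate 1 or 2 of either group, and in treated mice without WT replicate 1 or 3 or App replicate 2. The exons of Psmb5 share 54.1% of their 50-base stretches with other genes, of which Gm3375 alone holds 46.8%, so its counts are uncertain.

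Psmb10, which replaces Psmb7 in the immunoproteasome, was at 52.1, 59.6 and 51.9 CPM in veh-treated WT, 48.9, 57.6 and 54.4 in treated WT, 62.8, 62.9 and 60.2 in veh-treated App and 67.5, 71.6 and 61.3 in treated App mice. The genotypes did not overlap within a treatment, and the log2 fold change was 0.18 ± 0.08 in veh-treated (adjusted p = 0.095) and 0.32 ± 0.08 in treated mice (adjusted p = 0.00789). With library totals it was −0.01 and 0.05. Outside the rule, the inducible Psmb8 was higher by 0.70 ± 0.07 and 0.72 ± 0.07 (adjusted p = 1.29e-05 and 9.13e-06) and Psmb9 by 0.35 ± 0.09 and 0.47 ± 0.09 (adjusted p = 0.0106 and 0.00161), with TMM factors. Psmb8 stayed called in both comparisons with library totals, whereas Psmb9 was then called in neither.

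The 3 pairs of inducible and constitutive subunits did not move alike. Per kilobase and within each library, the ratio of Psmb9 to Psmb6 was 0.329 ± 0.035 in veh-treated WT and 0.325 ± 0.017 in treated WT, and 0.200 ± 0.038 and 0.195 ± 0.010 in App mice (SD, n = 3). The ratio of Psmb8 to Psmb5 was higher in App mice, with 1.11 ± 0.05 and 1.11 ± 0.09 in WT and 1.46 ± 0.07 and 1.48 ± 0.14 in App mice. Both pairs separated the genotypes without overlap. Psmb5 shares 54.1% of its 50-base stretches with other genes, so the ratio of Psmb8 to Psmb5 is uncertain. The ratio of Psmb10 to Psmb7 was 2.07 ± 0.07 and 2.0 ± 0.21 in WT and 2.01 ± 0.09 and 2.22 ± 0.12 in App mice, with overlapping libraries. These ratios were chosen after the values were seen and are given with no test.

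**Figure D4:**
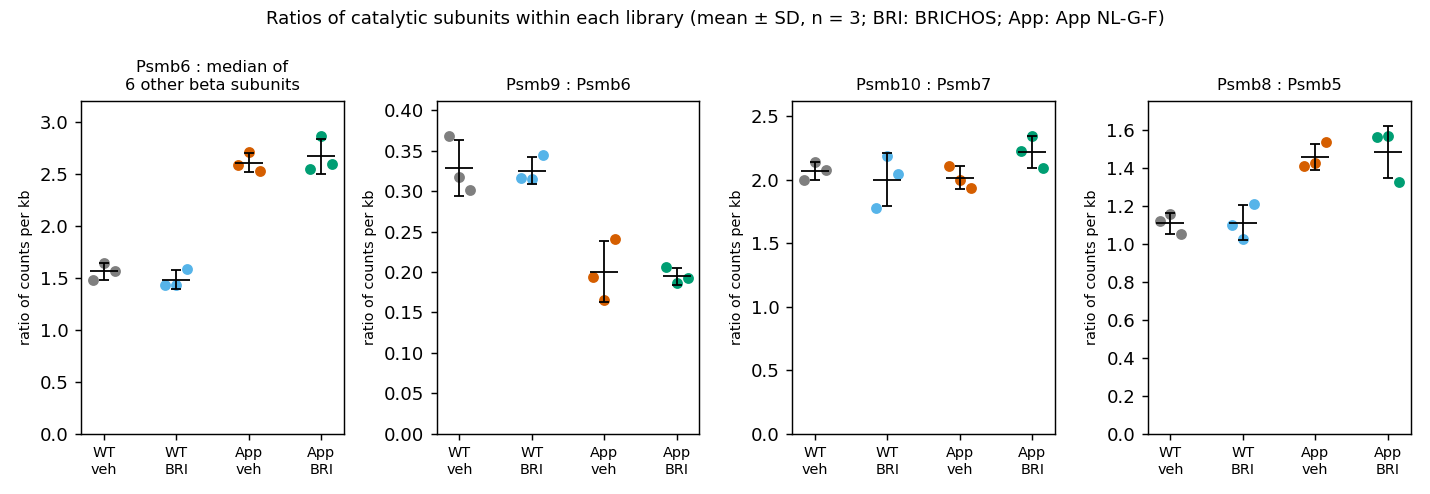
Ratios of counts per kilobase of exon within each library (y axis, from 0), for Psmb6 to the median of the 6 other beta ring genes and for each inducible subunit to the constitutive subunit it replaces, by group (x axis). Points are mice, and lines with bars are mean ± SD (n = 3). Psmb9 to Psmb6 averages 0.33 in WT and 0.20 or less in App mice, whereas Psmb8 to Psmb5 is higher there and Psmb10 to Psmb7 overlaps. Counts of Psmb5 are uncertain because of stretches shared with other genes.

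In the alpha ring, Psma1, Psma2, Psma5 and Psma7 were called in both comparisons and Psma6 in treated mice. Psma7 (alpha4) was at 51.6, 56.5 and 51.6 CPM in veh-treated WT, 52.4, 52.0 and 53.5 in treated WT, 59.1, 67.3 and 58.1 in veh-treated App and 68.5, 66.7 and 67.5 in treated App mice. Its log2 fold changes were 0.21 ± 0.06 and 0.36 ± 0.06 (adjusted p = 0.0228 and 0.000815). Psma1 (alpha6) had 54.1, 57.7 and 58.4 CPM in veh-treated WT, 53.9, 56.4 and 60.0 in treated WT, 65.5, 67.0 and 62.5 in veh-treated App and 67.5, 77.4 and 67.6 in treated App mice, with fold changes of 0.20 ± 0.07 and 0.32 ± 0.07. Neither overlapped between the genotypes with TMM factors. Under library totals the estimates became 0.02 and 0.09 for Psma7 and 0.01 and 0.05 for Psma1. None of Psma1, Psma2, Psma5, Psma6 and Psma7 was then called. Psma5 had the largest estimates of the ring (0.35 and 0.39), but 49.1% of its 50-base stretches are shared with other genes. Psma3 and Psma4 were called in neither, with −0.04 and 0.10 in veh-treated and 0.09 and 0.19 in treated mice.

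Of the 19S non-ATPase genes, Psmd2 and Psmd8 were called in both comparisons. Psmd2 was at 125.2, 121.6 and 122.4 CPM in veh-treated WT, 122.6, 122.0 and 116.2 in treated WT, 142.9, 136.6 and 144.9 in veh-treated App and 148.4, 145.4 and 143.7 in treated App mice. Its libraries varied little within groups, and with TMM factors the genotypes did not overlap. It was higher by a log2 fold change of 0.20 ± 0.04 and 0.28 ± 0.04 (adjusted p = 0.00294 and 0.000279). These estimates became 0.010 and 0.008 with library totals, and neither was called (adjusted p = 0.882 and 0.905, edgeR). Psmd8 lost both calls too (adjusted p = 0.182 and 0.209). Psmd2 shares 17.8% of its 50-base stretches with other genes. Psmd13, the lid subunit Rpn9, was at 38.4, 39.8 and 41.8 CPM in veh-treated WT, 38.9, 43.1 and 44.9 in treated WT, 52.2, 55.1 and 46.6 in veh-treated App and 44.6, 49.9 and 43.2 in treated App mice. It was higher by 0.36 ± 0.08 in veh-treated mice (adjusted p = 0.00542), and its estimate in treated mice was 0.12 ± 0.08 (adjusted p = 0.273), where the genotypes overlapped. The difference of these estimates was −0.24 ± 0.12 (adjusted p = 0.364). Psmd13 had 0.17 and −0.15 with library totals and was called in neither comparison (adjusted p = 0.092 and 0.107, edgeR). Its exons overlap Sirt3 on the opposite strand over 10.1% of their length, and the strand setting of the counting is not given in the sources used here.

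The PA28 activator genes, which lie close together on chromosome 14, were both higher. Psme1 (PA28 alpha) was at 103.2, 111.0 and 108.6 CPM in veh-treated WT, 94.4, 119.7 and 115.6 in treated WT, 153.8, 147.9 and 142.3 in veh-treated App and 158.9, 167.2 and 143.9 in treated App mice. Psme2 (PA28 beta) was at 49.8, 55.4 and 52.0 CPM in veh-treated WT, 50.8, 55.7 and 57.8 in treated WT, 77.4, 75.8 and 76.1 in veh-treated App and 78.9, 85.8 and 72.3 in treated App mice. Every App library was above every WT library in both genes. The log2 fold changes were 0.46 ± 0.09 and 0.51 ± 0.08 for Psme1 (adjusted p = 0.00138 and 0.000567) and 0.54 ± 0.07 and 0.53 ± 0.07 for Psme2 (adjusted p = 0.000118 and 0.000127). Psme2 shares 28.3% of its 50-base stretches with its copy Psme2b, which stood at 7.81 to 10.8 CPM and was called in neither comparison. The nuclear activators PA28 gamma (Psme3) and PA200 (Psme4) had −0.04 and −0.18 in veh-treated mice (adjusted p = 0.498 and 0.0515), and Psme4 was called lower there without WT replicate 1 or App replicate 3. In treated mice Psme3 was higher by 0.22 ± 0.05 (adjusted p = 0.00353) and the estimate for Psme4 was 0.02.

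Among the assembly factors, Psmg4 (PAC4, a chaperone of the 20S core) had the second largest fold change of all 47 genes at a low level. It was at 6.23, 4.74 and 4.47 CPM in veh-treated WT, 5.98, 4.79 and 6.35 in treated WT, 10.3, 9.19 and 7.26 in veh-treated App and 10.8, 11.3 and 7.78 in treated App mice. These levels rest on 60 to 176 counts per library. The genotypes did not overlap, and the log2 fold changes were 0.79 ± 0.20 and 0.80 ± 0.20 (adjusted p = 0.00904 and 0.00672). Its partner chaperones Psmg1, Psmg2 and Psmg3 were called in neither comparison, and the 19S chaperone Psmd9 was called in both (0.31 and 0.35). Psmd9 lost both calls with library totals (adjusted p = 0.399 and 0.562, edgeR). The exons of Psmd9 overlap Gm26745 on the opposite strand over 25.5% of their length. Psmb6, Psme1, Psme2 and Psmg4 were called higher in both comparisons with TMM factors, with DESeq2's size factors and with library totals, and Psmb1 and Psmb4 only in veh-treated mice.

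Summed over the 47 genes, the level was 2299.7 ± 70.5 CPM in veh-treated WT, 2290.2 ± 60.1 in treated WT, 2610.8 ± 47.4 in veh-treated App and 2759.9 ± 116.9 in treated App mice with TMM factors. Without them the means were 2460.9, 2504.2, 2448.9 and 2501.9 CPM, so the summed share of the counts did not separate the genotypes. The makeup of the sum, which needs no scaling, separated them without overlap. The counts of the beta ring were 0.896 ± 0.011 and 0.916 ± 0.003 of those of the ATPases in WT and 1.19 ± 0.07 and 1.20 ± 0.05 in App mice. Without Psmb6 the ratio was 0.749 ± 0.017 and 0.772 ± 0.007 in WT and 0.891 ± 0.037 and 0.889 ± 0.034 in App mice. For PA28 alpha and beta it was 0.403 ± 0.002 and 0.416 ± 0.035 against 0.551 ± 0.023 and 0.551 ± 0.027. Against the ATPases, the alpha ring and the non-ATPase subunits of App mice had 1.08 and 1.06 times the WT ratio in veh-treated and 1.10 and 1.09 times in treated mice. None of these ratios overlapped between the genotypes, and they too were chosen after the values were seen and are given with no test.

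Treatment with BRICHOS gave no called proteasome gene in App mice (0 of 47 by edgeR and by DESeq2), where 0.00648% of all genes were called in either direction. At an unadjusted p-value under 0.05, 5 genes were higher and 0 lower (3.18% and 7.67% of all genes), namely Psme3, Psmd3, Psmd11, Psmd4 and Psmc4. The estimate was above 0 for 39 of the 47 genes (52.0% of all genes), and the median was 0.08, beside 0.01 over all genes. With library totals 30 were above 0 and the median was 0.03, beside −0.04. In CPM with TMM factors, the 3 treated libraries lay above the 3 veh libraries for 10 genes (6.37% of all genes) and below them for 1, Psmf1 (7.09%). Replicate 2 of the treated group had the highest levels, with 36 of the 47 genes above the mean of the group.

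Psme3 had the lowest p-value of the treatment in App mice. It was at 72.7, 70.7 and 69.5 CPM in veh-treated and 79.5, 80.7 and 78.6 CPM in treated App mice, and at 71.4, 77.0 and 71.2 CPM in veh-treated and 65.6, 69.6 and 69.8 CPM in treated WT mice. The groups did not overlap within either genotype and lay in opposite order. The log2 fold changes of the treatment were 0.17 ± 0.05 in App (adjusted p = 0.294) and −0.10 ± 0.05 in WT mice (adjusted p = 0.469), and their difference was 0.27 ± 0.07 (unadjusted p = 0.00248 and adjusted p = 0.166, edgeR). Psmd3, the lid subunit Rpn3, was at 86.1, 85.8 and 84.5 CPM in veh-treated and 90.7, 95.0 and 98.2 CPM in treated App mice, and at 87.4, 87.6 and 86.7 CPM in veh-treated and 86.4, 81.9 and 85.4 CPM in treated WT mice. It showed the same order as Psme3 (0.15 ± 0.04 and −0.05 ± 0.04, adjusted p of the difference 0.219). Psmd11 (Rpn6) was at 49.9, 50.7 and 49.9 CPM in veh-treated and 55.1, 55.2 and 57.9 CPM in treated App mice (0.16 ± 0.06, adjusted p = 0.385). None of these differences passed the adjusted threshold.

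**Figure D5:**
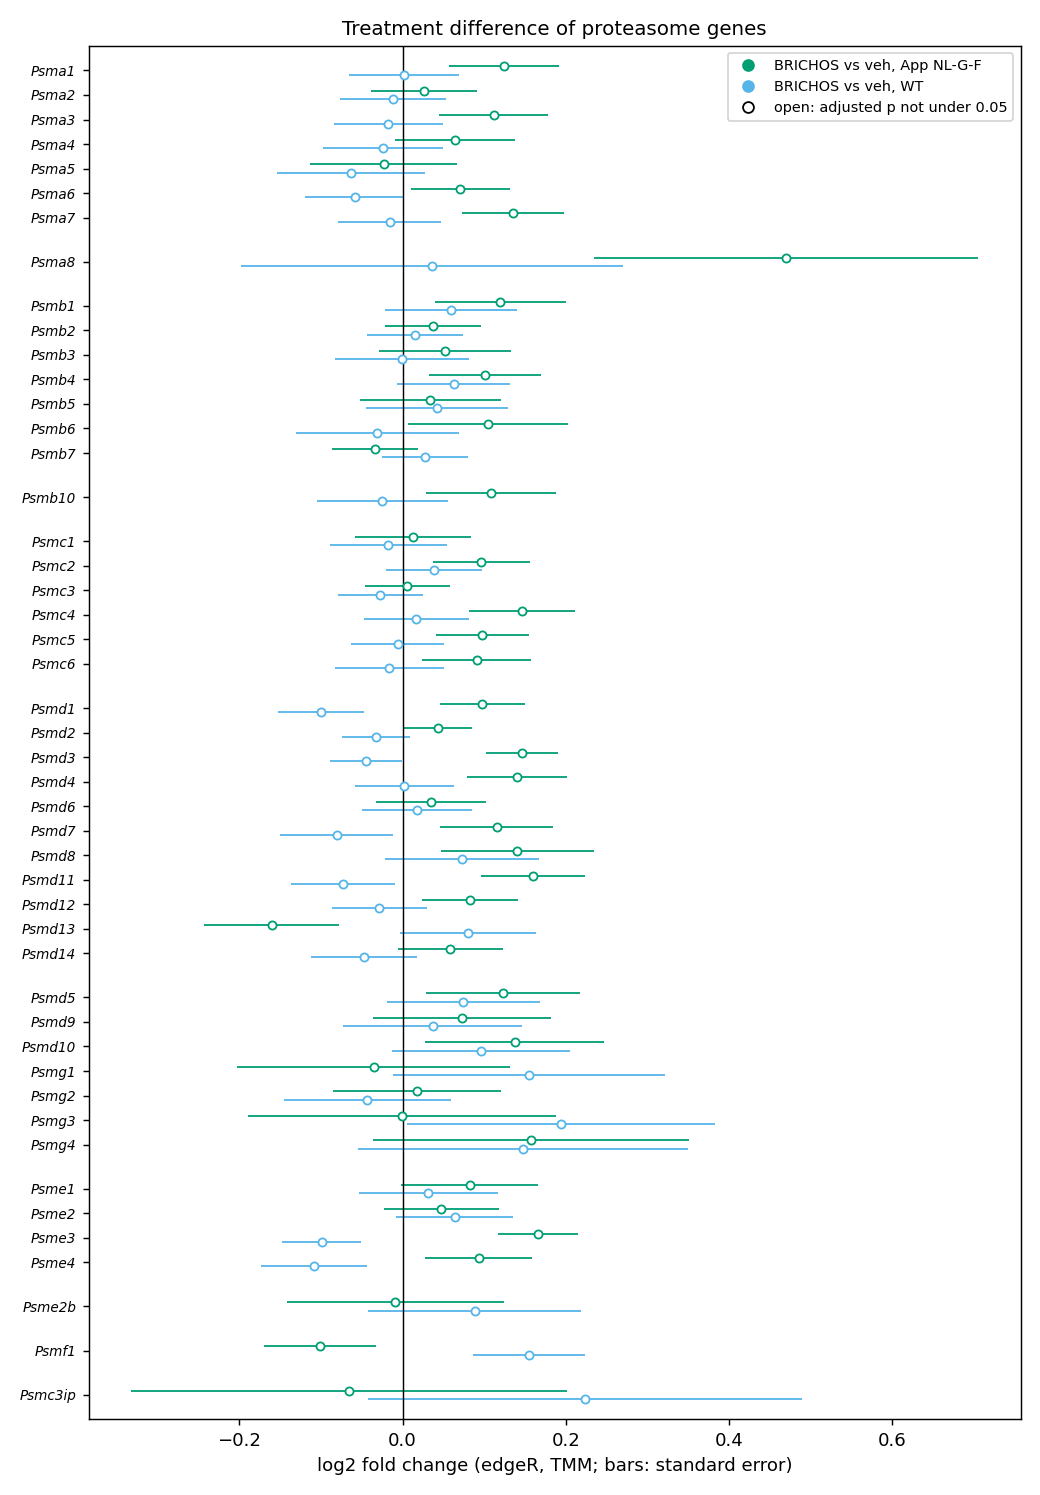
Log2 fold change of each of the 47 genes (y axis, grouped by role) between BRICHOS- and veh-treated mice, with TMM factors. Points are estimates in App (green) and WT mice (blue), and bars are standard errors. All points are open, since no gene had an adjusted p-value under 0.05, and 39 green and 24 blue points lie above 0.

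In WT mice, 0 of the 47 genes were called after treatment by edgeR and by DESeq2 (0.0% of all genes by edgeR). At an unadjusted p-value under 0.05, 1 gene was higher and 0 lower (6.55% and 4.83% of all genes). This was Psmf1, the inhibitor PI31, with 26.02, 26.45 and 29.88 CPM in veh-treated and 30.7, 30.2 and 30.8 CPM in treated WT mice (0.16 ± 0.07, adjusted p = 0.428). In App mice it was at 31.2, 30.1 and 30.0 CPM with veh and 28.7, 26.7 and 29.8 CPM with treatment (−0.10 ± 0.07). Psmd1, the scaffold Rpn2, was at 85.9, 91.9 and 85.5 CPM in veh-treated and 82.0, 81.4 and 82.3 CPM in treated WT mice, and at 88.1, 87.4 and 95.4 CPM and 96.0, 93.0 and 100.9 CPM in App mice. The median over the 47 genes was 0.00, and 24 estimates were above 0 (49.1% of all genes). The treated WT libraries lay above those with veh for 2 genes (8.36% of all genes) and below them for 4 (9.19%).

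The test of whether the effect of BRICHOS differed by genotype called 0 of the 47 genes by edgeR and by DESeq2, where 0.00648% of all genes were called. At an unadjusted p-value under 0.05 it took 4 genes higher, Psme3, Psmd3, Psmd1 and Psmd11, and Psmf1 lower (5.23% and 9.54% of all genes). The median was 0.06, beside 0.01 over all genes, and turned to −0.02 with library totals. For Psmb6 the treatment changed the level by 0.11 ± 0.10 in App (adjusted p = 0.768) and by −0.03 ± 0.10 in WT mice (adjusted p = 0.943).

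Genes that build, regulate or supply the proteasome but fall outside the rule were read from a list of 32, of which 31 were tested. In veh-treated mice 12 were higher and 1 was lower in App than WT, and in treated mice 17 and 2, with TMM factors, beside 20.1% and 16.9% of all genes in veh-treated and 20.8% and 21.8% in treated mice. With library totals 6 were higher and 8 lower in veh-treated mice, and 5 and 9 in treated mice, beside 13% and 33.7% and 10.3% and 45.4% of all genes, so the balance of directions turned with the scaling. Nfe2l2, Pomp, Psmb8, Rps27a and Zfand2a were called higher and Akirin2 lower in both comparisons under either scaling. Nfe2l2, which encodes Nrf2, a factor known to induce proteasome genes under oxidative stress, was at 300.8 to 310.0 CPM in veh-treated WT and 569.0 to 696.9 CPM in veh-treated App mice, and at 242.8 to 312.1 CPM and 553.4 to 781.8 CPM in treated mice. The genotypes did not overlap (1.03 ± 0.13 and 1.16 ± 0.13, adjusted p = 0.000104 and 3.83e-05). Nfe2l1, whose product is the main factor that restores proteasome synthesis when the proteasome is inhibited, had 0.05 ± 0.05 in both (adjusted p = 0.439 and 0.471), and was called lower in both with library totals. Ddi2, the protease that activates it, was higher by 0.26 ± 0.06 and 0.38 ± 0.06 (adjusted p = 0.00728 and 0.000581), and lost both calls with library totals. Pomp, a chaperone of beta ring assembly, was higher by 0.50 ± 0.08 and 0.54 ± 0.08 (adjusted p = 0.000526 and 0.000234). Sem1, a small 19S subunit, was higher by 0.59 ± 0.10 and 0.47 ± 0.10 (adjusted p = 0.00091 and 0.00303), the second of which was lost with library totals. Zfand2a, a proteasome-binding protein induced by arsenite, was higher by 1.27 ± 0.23 and 1.74 ± 0.23 (adjusted p = 0.00132 and 0.00012). Akirin2, which guides proteasomes into the nucleus, was lower by −0.43 ± 0.07 and −0.35 ± 0.07 (adjusted p = 0.000568 and 0.00208). After treatment 0 of the 31 were called in either genotype by edgeR, and an unadjusted p-value under 0.05 was reached by 1 in App and 2 in WT mice, all higher.

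Markers of microglia and of other cells moved with genotype in these libraries. Their sums are given here as CPM of the library totals without TMM factors, whereas the calls used these factors. The summed level of 8 microglia markers was 26793 to 30532 CPM in WT and 23092 to 25122 CPM in App libraries, with 5 called lower and 2 higher in veh-treated mice. The sum of 7 astrocyte markers was 457.2 to 840.5 CPM in WT and 567.3 to 4259.3 CPM in App libraries, and all 7 were called higher in veh-treated mice and 1 in treated mice. The sum of 6 oligodendrocyte markers was 4468.1 to 17568 CPM in WT and 2994.0 to 5629.8 CPM in App libraries. On this scale, the sums for neurons, border macrophages, B cells, mural cells and neutrophils were lower in every App than WT library. They were at most 33.4, 486.8, 14.1, 316.1 and 378.4 CPM, and all 5 neutrophil markers were called lower in veh-treated mice. The sums of mural cells ranged from 199.7 to 316.1 CPM in WT and from 61.8 to 157.8 CPM in App libraries, and those of neutrophils from 33.9 to 378.4 and from 9.34 to 30.6 CPM. The sum of 4 choroid plexus and ependyma markers was 881.1 to 4145.8 CPM in WT and 584.6 to 1790.6 CPM in App mice with veh. In treated mice it was 3511.4 to 7194.5 and 556.4 to 869.9 CPM, and all 4 were called lower there and 0 with veh. Of 5 endothelium markers, 4 were called lower in both comparisons, and of 3 red cell markers 2 in treated mice only. No listed marker of any type was at 0 in all libraries. The part of these cells in the differences of the proteasome genes was not tested, and in bulk RNA more cells of a type and more RNA per cell cannot be told apart. The TMM factors were 1.05 to 1.10 in WT and 0.87 to 0.95 in App libraries. Dividing by them would lower the WT sums and raise the App sums, and whether the sums stay apart was not tested.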

How the data were processed

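The authors trimmed reads with Cutadapt, aligned them to GRCm38 with STAR and deposited raw counts per gene from featureCounts 1.5.1 (strand setting and handling of multiply aligned reads are not given in the sources used here). Each library is 1 mouse, grouped by its title. Counts were fitted with edgeR 4.0.16 (R 4.3.3): filterByExpr with a minimum count of 10, TMM factors, glmQLFit with a mean per group over all 12 libraries, glmQLFTest and Benjamini-Hochberg adjustment. The alternatives were DESeq2 1.42.0 (Wald test), its size factors, library totals, other filters, only the compared groups, the replicate number as a block and the omission of each library. Scripts were tested on simulated data with 200 changed genes. Of these, 0 were found at a 1.25-fold, 127 at a 1.5-fold and 182 at a 2-fold change, with 0, 3 and 18 false calls. In the real data, 20.1% of all genes were called higher and 16.9% lower in veh-treated mice. The adjustment is stricter where few genes change, so these rates do not describe the genotype comparisons. Symbols, exon lengths and shared 50-base stretches came from GENCODE for GRCm38, promoters from RefSeq GRCm38.p6. Exon lengths merge the exons of all transcripts of a gene. Levels, ranks and ratios per kilobase depend on them, whereas the relative change of a ratio of 1 gene to another between groups does not. Values in every library are given for the 8 genes with the lowest p among those called (3 where fewer were called), the catalytic subunits and Psme1 and Psme2, and for Psmg4, chosen after its values were seen. Members and lists were chosen with earlier results of these data known. With 3 counts taken as the smallest detectable level, the libraries reach 0.168 to 0.241 CPM. Correlations of equally numbered libraries were −0.114 to 0.264, above 0 in 15 of 18 pairs (13 of 36 with unequal numbers) and above 0.1 in 9. All 3 were above 0.1 only for veh-treated WT against BRICHOS-treated App mice, which are not compared here, so the numbers were not taken as pairing.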

Additional observations from a re-analysis of the deposited data

How the results depend on the processing

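The calls of the 47 genes between App and WT mice depended most on the scaling. With library totals only, 13 genes were called in BRICHOS-treated mice in place of 26, and the median log2 fold change of the 47 genes became −0.0512 in veh-treated and −0.0794 in treated mice, 0.033 for the treatment in App mice and −0.0214 for the difference of the treatment effects. The number of genes above 0 fell from 38 to 18 in veh-treated and from 41 to 17 in treated mice, and 12 and 9 were called lower. With library totals, 13% of all genes were called higher and 33.7% lower in veh-treated mice, and 10.3% and 45.4% in treated mice. The medians over all genes were −0.21 and −0.31. Of the genes that turned below 0, 5 were called lower in veh-treated (Psmc2, Psmc3, Psmc6, Psmd1 and Psmd4) and 6 in treated mice (Psma3, Psmb2, Psmc2, Psmc3, Psmc5 and Psme4). Among those named with every library's value, Psmb10 in veh-treated mice (−0.0054) and Psmb7 in treated mice (−0.11) turned, neither called. The scaling moves all genes of a library by 1 factor. Under the other settings, which were DESeq2, its size factors, both filters, the compared groups alone and the replicate block, 11 to 18 genes were called in veh-treated and 21 to 28 in treated mice, and 0 for the treatment in either genotype. Leaving out each library in turn gave 12 to 16 and 20 to 27 called genes and 0 for the other 3 comparisons, with medians of 0.10 to 0.15 and 0.17 to 0.22 between the genotypes, 0.05 to 0.10 and −0.01 to 0.02 for the treatment in App and WT mice, and 0.0467 to 0.12 for the difference, which reached 0.12 from 0.06 without App BRICHOS replicate 3. The call of Psmb7 in treated mice was lost under both other filters (adjusted p = 0.107 and 0.0543) and in 4 of the 12 omissions, and that of Psmb5 in veh-treated mice without a filter (adjusted p = 0.0535). With the replicate block 17, 25, 0, 0 and 0 genes were called, and Psmb10 in veh-treated mice passed (0.19, adjusted p = 0.0441); the numbers were not taken as pairing, and the equal number gave a library's highest correlation with another group in 11 of 18 cases. Psme4 was called lower in veh-treated mice without WT replicate 1 (adjusted p = 0.0369), without App replicate 3 (0.0429) and with at least 10 counts in every library (0.0367), the only member called lower outside library totals between the genotypes. The 0 calls for the treatment do not show that the levels were equal.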
